A study of Mus musculus with 26 samples.

Results

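The replication-dependent histone genes code for the histones H1, H2A, H2B, H3 and H4 that package newly made DNA. The genes described here were the rows of the deposited count table whose symbol begins with Hist1h, Hist2h, Hist3h or Hist4h and which had at least 10 counts in at least 5 libraries. Of 64 such symbols, 50 met the count rule, out of 24091 rows in the table. They comprised 5 H1, 12 H2A, 13 H2B, 8 H3 and 12 H4 genes. All 50 were among the 13379 genes that passed the filter on low counts and were tested. The other 14 symbols, among them the testis gene Hist1h1t and the pseudogene Hist3h2bb-ps, held 1023 of the 58477 histone reads. Apart from neighbours of Hist1h4m, they are not described further.

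RNA-seq libraries were made from LSK cells (lineage-negative, Sca-1+ and c-Kit+) of the bone marrow, the fraction that holds haematopoietic stem and multipotent progenitor cells. All mice were C57BL/6 and carried SCLtTA/BCR-ABL, transgenes that model chronic myeloid leukaemia when induced. They differed in Spred1, whose product restrains RAS-ERK signalling. Global KO mice (6 libraries) lacked Spred1 in all cells and Spred1 wt mice (5 libraries) did not. In the HSC KO and HSC wt mice, with 5 libraries per group, Mx1-cre was switched on with the interferon inducer poly(I:C), given as 7 doses of 250 µg, 1 every 2 days. This Cre also acts in other interferon-responsive cells. The EC KO group (5 libraries) had the endothelial knockout, whose Cre driver the labels do not name. Its labelled control, EC wt, was not analysed here, and Spred1 wt stood in for it. The labels do not say if poly(I:C) was also given to the remaining 3 groups. The labels count mice for the HSC and EC groups. Nothing says whether the global KO and Spred1 wt libraries came from separate animals, so p-values may there measure only technical spread.

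Library totals ranged from 14816071 to 26714325 counts. The LSK markers Kit (344 to 1249 CPM, a count relative to the total of its library, with totals scaled by the TMM method) and Ly6a, which codes for Sca-1 (41.0 to 83.6 CPM), were counted in every library, as were the progenitor markers Cd34 and Flt3. Spred1 lay between 22.4 and 47.4 CPM in the global KO and HSC KO libraries and between 92.4 and 148 CPM in the Spred1 wt and HSC wt libraries. In EC KO it lay between 58.0 and 84.0 CPM, below all control libraries. Xist was at or above 500 CPM in 2 EC KO, 2 HSC wt and 3 HSC KO libraries and in 0 global KO and 0 Spred1 wt libraries.

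Replication-dependent histone genes are switched on as cells enter S phase, by the coactivator NPAT, and are switched off when replication ends. Their messenger RNAs are unusual in ending not in a poly(A) tail but in a conserved stem-loop, which is bound by the stem-loop binding protein SLBP and cut with the help of the U7 small nuclear ribonucleoprotein. Some of these genes also give polyadenylated transcripts, which are known from differentiated and non-dividing cells. Whether the libraries were selected for poly(A) is not given in the sources used here.

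The stem-loop sets these transcripts apart, so its sequences are shown first, with the loop bases in capitals. They were read from the GENCODE M21 transcripts (GRCm38) after the stop codon, by a search for the histone stem-loop motif. A match after the stop codon of a chosen transcript was found in 36 of the 50 genes (72.0%). Over all 55341 annotated genes the search was wider, at any position of any transcript, and 86 genes matched (0.155%). The shares thus come from unlike searches. Of those 86, 40 lie outside the histone symbols. The most common form, in 18 genes of the H1, H2A, H2B and H3 classes, and here of Hist1h2bg at chr13:23571843-23571858 on the plus strand, differs from the common H4 form in the stem. Another form, in 5 H2B and H3 genes, carries another last loop base.
Hist1h2bg: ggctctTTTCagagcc
Hist1h4m: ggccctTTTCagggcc
H2B and H3 form: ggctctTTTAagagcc
Hist1h4i: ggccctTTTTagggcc
The Hist1h4m copy lies at chr13:21812129-21812144 on the plus strand and that of Hist1h4i at chr13:22040966-22040981 on the minus strand. The match was present in 3 of 5 H1, 8 of 12 H2A, 8 of 13 H2B, 6 of 8 H3 and 11 of 12 H4 genes. A missing match says only that these letters are not in the model, and 12 of the models hold fewer than 60 bases after the stop codon.

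The promoters of 3 genes are printed because they belong to the genes on which the levels and the group differences turn: the highest H2B gene per length, the highest H4 gene and the H4 gene that differed most between groups. They are RefSeq promoters of GRCm38.p6, from 250 bases before to 50 bases after the annotated start, with 3 motifs in capitals on either strand. The first is TATAAA, the TATA box letters, marked at any position, so a match need not be a TATA box. In Hist1h4i and Hist1h4m it lies well upstream of the annotated start. The second is CCAAT, shown in capitals in its reverse complement too. The third is ATTTGCAT, the octamer letters.
Hist1h2bg: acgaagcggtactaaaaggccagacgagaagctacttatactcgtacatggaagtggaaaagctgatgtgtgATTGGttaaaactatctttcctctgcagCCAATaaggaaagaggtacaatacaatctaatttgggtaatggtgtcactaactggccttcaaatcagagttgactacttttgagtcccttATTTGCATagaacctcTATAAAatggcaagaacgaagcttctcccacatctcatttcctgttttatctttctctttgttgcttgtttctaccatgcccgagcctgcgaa
Hist1h4i: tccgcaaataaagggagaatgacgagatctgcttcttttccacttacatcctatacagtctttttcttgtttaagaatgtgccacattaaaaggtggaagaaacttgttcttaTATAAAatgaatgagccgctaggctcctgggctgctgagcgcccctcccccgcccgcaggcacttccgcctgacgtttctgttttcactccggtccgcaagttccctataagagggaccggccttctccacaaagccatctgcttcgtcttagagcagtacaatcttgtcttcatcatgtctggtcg
Hist1h4m: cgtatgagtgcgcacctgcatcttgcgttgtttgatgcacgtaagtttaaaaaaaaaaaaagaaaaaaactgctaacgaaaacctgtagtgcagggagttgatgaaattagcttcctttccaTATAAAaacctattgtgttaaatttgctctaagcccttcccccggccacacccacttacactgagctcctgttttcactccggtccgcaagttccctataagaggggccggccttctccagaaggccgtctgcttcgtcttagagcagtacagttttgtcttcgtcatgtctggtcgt
Their positions are chr13:23571150-23571449 (plus strand), chr13:22041313-22041612 (minus strand) and chr13:21811496-21811795 (plus strand). A RefSeq promoter was matched for 43 of the 50 genes. ATTTGCAT, the octamer letters known for H2B promoters, was present on either strand in 5 of 11 H2B and 4 of 11 H2A promoters and in 0 of the 21 H1, H3 and H4 promoters. Over all 32851 promoters in the reference table it was present in 1.74%. CCAAT was present in all 32 matched H1, H2A, H2B and H3 promoters and in 3 of 11 H4 promoters, against 37.4% of all promoters. TATAAA was present in 24 of 43, against 13.6%. None of the 3 motifs contains another, and a match describes letters only. Promoters of neighbouring genes on opposite strands can overlap, so 1 match can count for both. Those of Hist1h2ae (chr13:23571171-23571470) and Hist1h2bg do.

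Of the 50 genes, 41 lie on chromosome 13, 7 on chromosome 3, and 1 each on chromosomes 6 and 11 (positions as in the deposited table, mm10). Histone genes often lie head to head: 11 pairs had starts within 500 bases of each other, and in 6 of these both genes met the count rule, always an H2A with an H2B gene. The H2B gene was the higher one per kilobase in 4 of the 6. Hist1h2ae and Hist1h2bg, whose starts are 180 bases apart, had mean levels of 2.32 and 17.08 CPM per kb, a 7.35-fold difference. Hist1h2ac and Hist1h2bc, 240 bases apart, had 8.24 and 17.03 CPM per kb.

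Histone reads were rare in all libraries. Selection for poly(A), which is not known here, would lose transcripts without a tail, and this limits the comparison with polyadenylated genes below. The 50 genes together held between 1477 and 3787 reads per library. Their median mean count was 17.98, against 575 for all genes tested, and 28 of the 50 had a mean count under 20 (8.90% of all genes tested). The replication-independent histone variants, most of which are made as polyadenylated transcripts outside S phase too, were mostly higher on the same scale. H3f3b, which codes for H3.3, had a mean of 448 CPM per kb over the 26 libraries, H2afz (H2A.Z) 338, H2afx (H2A.X, the variant phosphorylated at DNA breaks) 122 and H3f3a (H3.3) 177. The highest replication-dependent gene, Hist1h1c, had 26.8 CPM per kb. Of the 11 variant genes 9 lay above it, the lowest of these H2afj at 30.8, while H1fx (13.9) and H2afy2 (5.30) lay below it.

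A few genes held much of the signal. The 4 with most reads accounted for 43.7% of the histone reads. Per kilobase, the 2 highest genes of each class were Hist1h1c (26.8) and Hist1h1e (8.70) among the linker histones H1, and Hist1h2ac (8.24) and Hist2h2ac (3.75) among H2A. Among H2B they were Hist1h2bg (17.08) and Hist1h2bc (17.03), among H3 Hist1h3e (2.38) and Hist1h3c (2.10), and among H4 Hist1h4i (24.4) and Hist1h4d (3.62). The H3 genes were the lowest class: their summed level was 5.23 CPM over all libraries, against 41.2 for H2B, 37.0 for H1, 18.97 for H4 and 14.8 for H2A. Values per kilobase use the gene lengths of the deposited table, which differ from the annotated transcript for some genes.

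**Figure D1:**
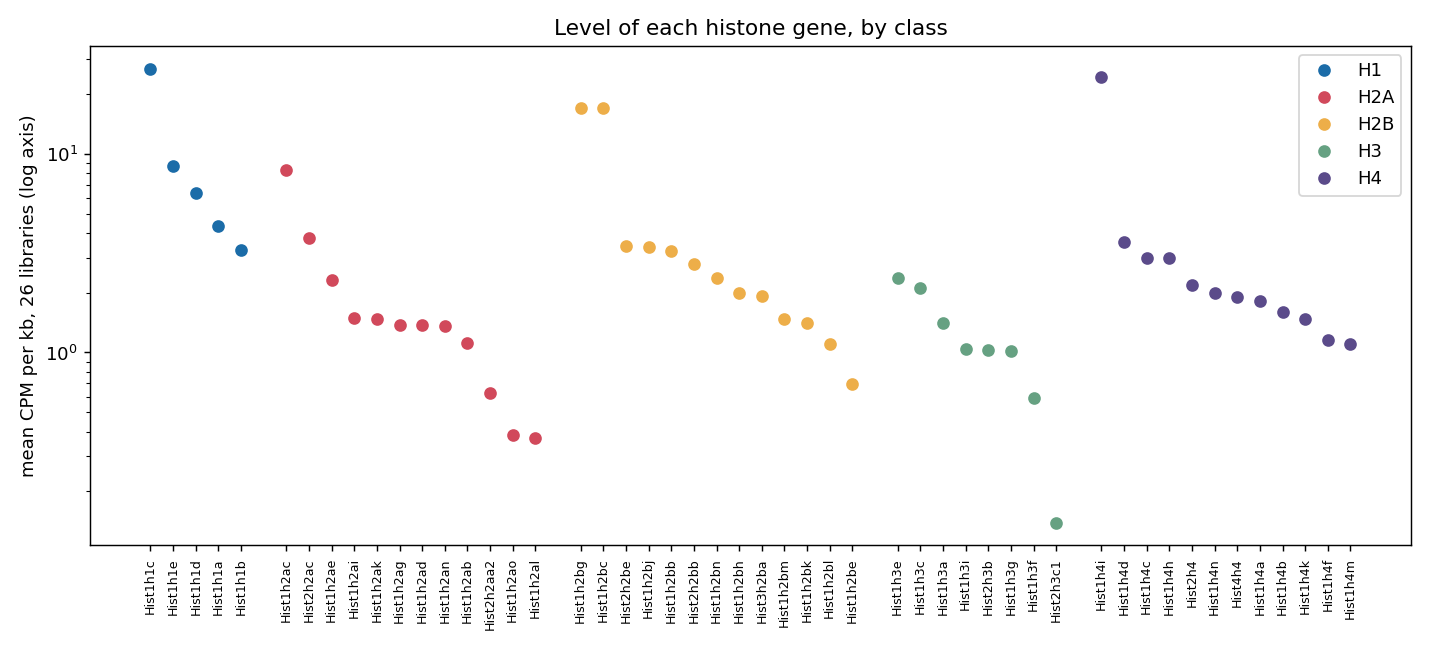
Mean level of each of the 50 histone genes over 26 libraries in CPM per kb, on a log axis, sorted within class. Hist1h1c, Hist1h4i, Hist1h2bg and Hist1h2bc stand above the rest, and the H3 genes are low.

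The annotated transcript holds the polyadenylation letters AATAAA after the stop codon for 13 of the 49 genes with a coding model, and these include 5 of the 8 genes of highest CPM (Hist1h1c, Hist1h2bc, Hist2h2be, Hist1h1d and Hist1h2ac). The median level was 1.29 CPM for these 13 genes and 0.723 CPM for the 36 without. The 13 genes gave 49.9% of the summed histone level. Model length goes with this count, since the median stretch after the stop codon was 1258 bases in the first set and 77.5 bases in the second. No test was made, and which transcript form gave the reads was not tested.

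Histone genes are near copies of each other, and this limits single-gene counts. The median share of 50-base windows of a transcript that occur in no other annotated gene was 41.0%, and 33 of the 50 genes had a share under 50%. H1 genes were the most distinct (lowest 77.6%), and Hist2h2aa2, Hist2h2bb, Hist2h3b and Hist2h3c1 had 0% unique windows. How reads that match several genes were counted, and whether counting used strand, are not given in the sources used here.

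The summed level of all 50 genes varied 2.42-fold between libraries, from 76.7 CPM in Spred1 wt 2 to 186 CPM in global KO 6. Its mean was 101 ± 23.1 CPM in Spred1 wt (SD, n = 5), 121 ± 38.2 in global KO (n = 6), 115 ± 11.5 in HSC wt (n = 5), 123 ± 23.7 in HSC KO (n = 5) and 125 ± 25.9 in EC KO (n = 5). The groups overlapped. The H4 sum was the exception in 1 comparison. It was 16.3 ± 1.53 CPM in Spred1 wt and 22.8 ± 3.60 in EC KO, and all 5 EC KO libraries (18.9 to 26.3 CPM) lay above all 5 Spred1 wt libraries (14.5 to 18.1 CPM). The H2B sum, by contrast, was 38.3 ± 10.3 and 41.4 ± 10.03 CPM in these groups, with 0 EC KO libraries above all Spred1 wt libraries.

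**Figure D2:**
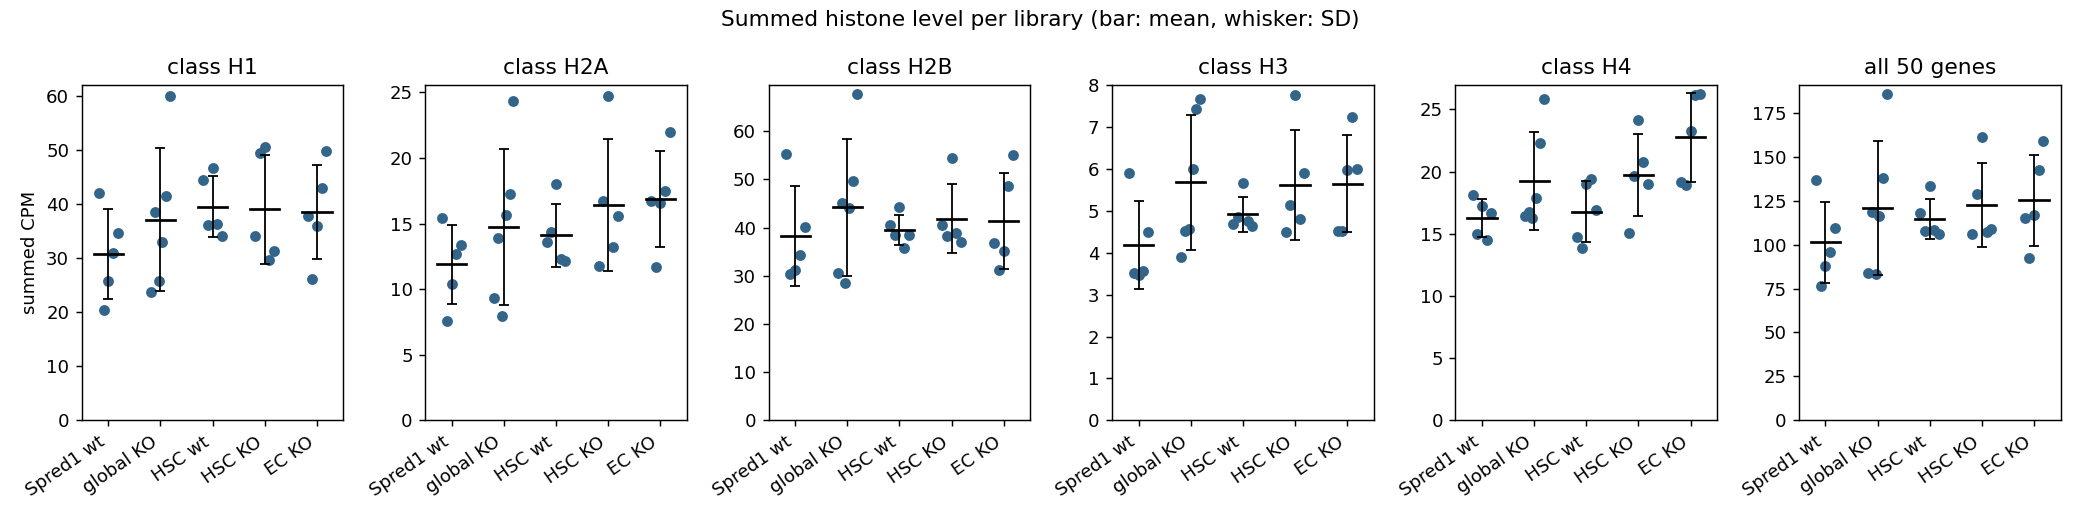
Summed CPM of the histone genes of each class and of all 50 genes in each library (points), by group, with mean (bar) and SD (whisker). The compared groups overlap in every panel, apart from EC KO and Spred1 wt in class H4.

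Global KO was compared with Spred1 wt for the effect of losing Spred1 in all cells. No histone gene passed (edgeR quasi-likelihood test, Benjamini-Hochberg adjusted p under 0.05 over 13379 genes), where 0.0747% of all genes passed in either direction (0.0224% higher and 0.0523% lower). By point estimate 42 of the 50 were higher and 8 lower, with a median log2 difference of 0.29, against 0.01 over all genes tested. Without global KO 6 the median was 0.14, and without global KO 3 it was 0.41. At an unadjusted p under 0.05 there were 4 histone genes, all higher, against 5.53% of all genes in either direction. The groups overlapped for all 50, where 0.321% of all genes did not overlap. DESeq2 and limma voom also called 0.

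The H4 gene Hist1h4c had the smallest p. Its counts were 12 to 30 in global KO (0.624 to 1.69 CPM, median 1.41) and 12, 17, 14, 13 and 12 in Spred1 wt (0.769, 0.807, 0.772, 0.844 and 0.780 CPM). The lowest global KO library lay below all controls and 5 of 6 above them, with a log2 difference of 0.66 (SE 0.25, edgeR adjusted p = 0.698). The other genes of small p with a higher estimate were Hist1h2ae at 0.76 (SE 0.30, adjusted p = 0.776), which codes for H2A, and the linker histone gene Hist1h1d at 0.62 (SE 0.24, adjusted p = 0.785). The linker gene Hist1h1d rested partly on global KO 6, at 7.79 CPM against 3.10 to 4.78 in the other 5. Among genes with a lower estimate, the H2B gene Hist3h2ba had the smallest p, with -0.75 (SE 0.37, adjusted p = 0.904), and 4 of 6 global KO libraries below all controls.

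HSC KO was compared with HSC wt for the effect of losing Spred1 after Mx1-cre activation. No histone gene passed, where 0.0224% of all genes did, and 36 were higher and 14 lower by point estimate, with a median of 0.14 (0.02 over all genes). The median was -0.04 without HSC KO 3, 0.09 without HSC wt 2 and 0.20 without HSC wt 3. At an unadjusted p under 0.05 there was 1 histone gene, against 2.16% of all genes, and DESeq2 and limma voom called 0. That gene was Hist1h4h, an H4 gene, with 0.933, 1.51, 1.385, 1.60 and 0.836 CPM in HSC KO and 0.661, 0.5996, 1.21, 0.687 and 0.866 CPM in HSC wt. The groups overlapped for this and the other histone genes (0.65% of all genes did not overlap), with 3 of 5 HSC KO libraries above all HSC wt libraries (log2 difference 0.63, SE 0.29, adjusted p = 0.999). The H3 gene Hist1h3f (0.62, SE 0.30) and the H4 gene Hist1h4k (0.58, SE 0.29) followed. The genes with a lower estimate and the smallest p were Hist1h2be (-0.19), Hist1h2al (-0.38) and Hist1h2bl (-0.28), all with adjusted p = 0.999.

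The same fit gave a test of whether the effect in global KO differed from that in HSC KO. No histone gene passed, where 0.0149% of all genes did, and at an unadjusted p under 0.05 there were 0 (2.14% of all genes). DESeq2 and limma voom called 0 as well. Hist1h1d came nearest, with a difference of 0.71 (log2, SE 0.35; edgeR adjusted p = 0.9998). In the global KO contrast its estimate was 0.62 and in the HSC KO contrast -0.09, where 4 of 5 H1 genes had estimates below 0.

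EC KO, labelled as the loss of Spred1 in endothelial cells, was compared with Spred1 wt. Endothelial cells are not the cells the labels name as sequenced. In the sequenced libraries Spred1 was at 58.0 to 84.0 CPM in EC KO, against 92.4 to 148 CPM in Spred1 wt. Endothelial loss and a lower Spred1 level in the sequenced cells cannot be told apart here. Of the endothelial markers, Cdh5 was at 0 to 2.21 CPM and Plvap at 0.476 to 3.47 CPM over all libraries, while Pecam1, which blood cells also express, was at 124 to 193 CPM. In this comparison 5 histone genes rose and 0 fell. Over all genes tested 3.49% rose and 4.47% fell, 7.96% in all. The 5 were the H4 genes Hist1h4m, Hist1h4c and Hist1h4i, the linker histone gene Hist1h1d and the H3 gene Hist1h3a. By point estimate 44 of the 50 were higher, with a median log2 difference of 0.55, against 0.02 over all genes. At an unadjusted p under 0.05 there were 17, all higher, against 25.1% of all genes in either direction. The 2 groups did not overlap for 7 genes, against 5.55% of all genes tested.

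Hist1h4m showed the largest change of the 5. It had 14, 11, 12, 21 and 16 reads in EC KO (0.586, 0.518, 0.584, 1.13 and 0.672 CPM). In Spred1 wt it had 0, 5, 3, 1 and 2 reads (0, 0.237, 0.165, 0.0649 and 0.130 CPM). Every EC KO library lay above every Spred1 wt library, although the Spred1 wt values are close to the limit that a count of 0 allows (3 counts, or 0.142 to 0.195 CPM per library in global KO and Spred1 wt). The fitted log2 difference was 2.40 (SE 0.51, edgeR adjusted p = 0.00523).

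Hist1h4i, the highest H4 gene, had 10.1, 10.4, 12.3, 11.6 and 12.3 CPM in EC KO and 8.72, 8.02, 9.04, 8.05 and 7.15 CPM in Spred1 wt. The groups did not overlap, and the rise was 1.38-fold (log2 0.47, SE 0.13, edgeR adjusted p = 0.0284). Hist1h4c had 36, 20, 36, 28 and 45 reads in EC KO (1.51, 0.941, 1.75, 1.501 and 1.89 CPM), again above all 5 Spred1 wt libraries. Its rise was 1.90-fold (log2 0.93, SE 0.25, adjusted p = 0.0249).

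Hist1h1d had 5.23, 3.72, 6.13, 6.92 and 6.97 CPM in EC KO and 5.26, 2.42, 2.26, 1.82 and 2.93 CPM in Spred1 wt. Spred1 wt 1 lay among the EC KO values, so the groups overlapped (1.98-fold, log2 0.98, SE 0.25, edgeR adjusted p = 0.0174). Hist1h3a had 18, 18, 23, 17 and 18 reads in EC KO and 10, 9, 5, 9 and 6 in Spred1 wt, with no overlap in CPM (1.89-fold, log2 0.92, SE 0.28, adjusted p = 0.0427). Genes with a lower estimate were few. The H3 gene Hist2h3c1 (-1.29, SE 0.85), the H2B gene Hist2h2be (-0.22, SE 0.18) and the H4 gene Hist4h4 (-0.13, SE 0.33) had the smallest p among them, with adjusted p of 0.355, 0.462 and 0.839.

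**Figure D3:**
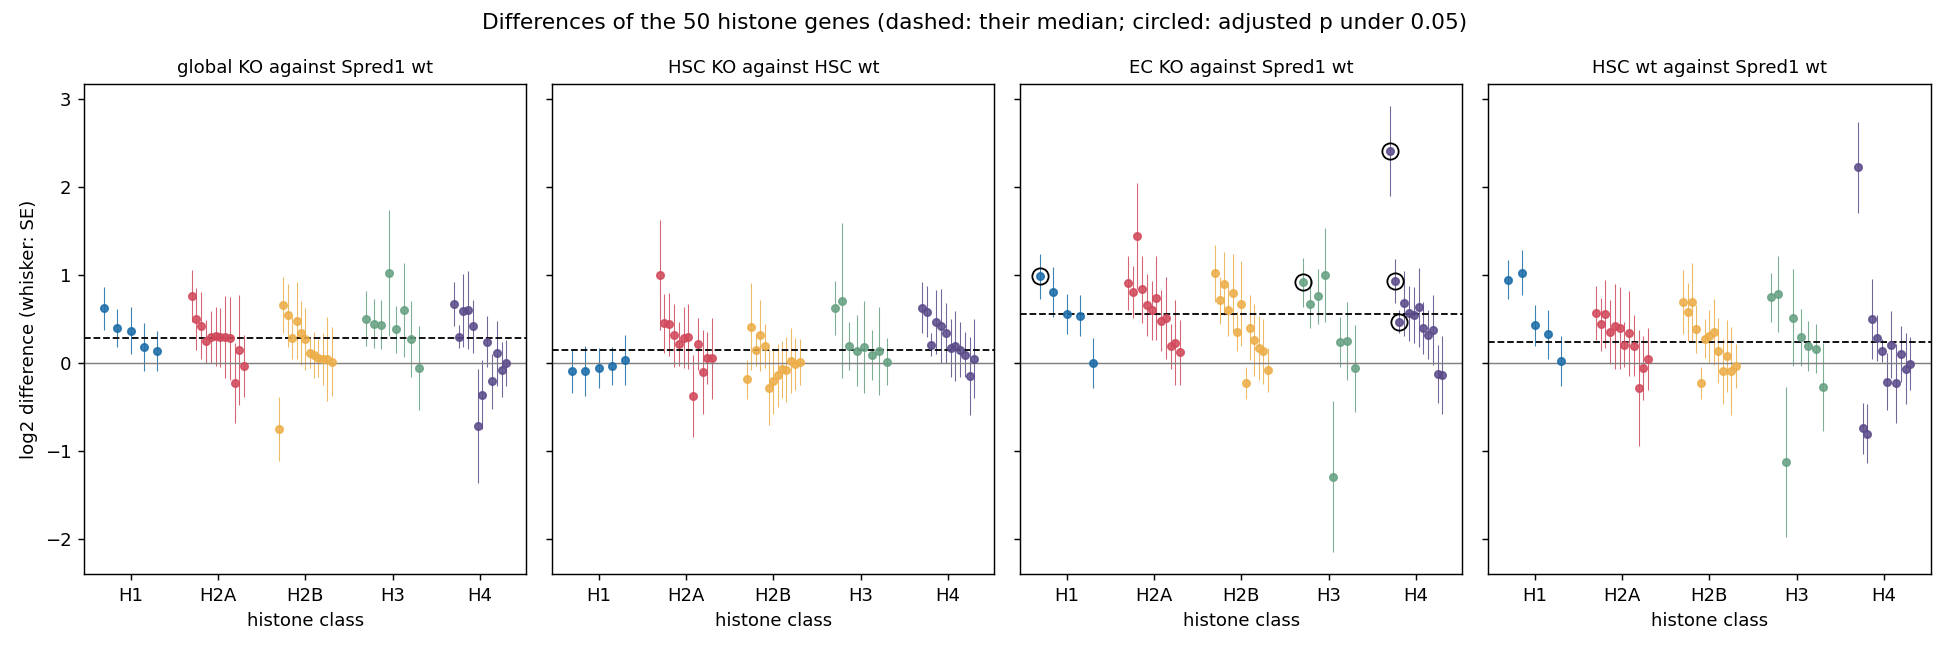
Log2 difference of each of the 50 histone genes in 4 comparisons, by class, with SE (whiskers), the median of the 50 (dashed line) and a circle around genes with adjusted p under 0.05. Only the panel of EC KO against Spred1 wt has circled genes, 5 in number.

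The count of 5 depended on the libraries and on the control. Without Spred1 wt 2 it was 1, without Spred1 wt 5 or EC KO 3 it was 2, without EC KO 4 it was 3 and without Spred1 wt 1 it was 9. A fit of these 10 libraries alone, in which 40 of the 50 genes and not Hist1h4m passed the filter on low counts, called 0 histone genes. With HSC wt in place of Spred1 wt as the control, 1 gene rose, Hist1h4h (log2 1.06, SE 0.28, edgeR adjusted p = 0.0165), where 5.24% of all genes rose. In that comparison Hist1h4m differed by 0.18 (adjusted p = 0.820), Hist1h3a by 0.17 (adjusted p = 0.720) and Hist1h1d by -0.04 (adjusted p = 0.931). HSC wt mice had received poly(I:C), and whether EC KO or Spred1 wt mice had is not given. Neither is the labelled control of EC KO. Among these refits, the share of all genes called is given only for the HSC wt control. A changed count need not be particular to histone genes.

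Other transcripts moved with this contrast. The summed mast cell markers (Cpa3, Tpsab1, Cma1 and Mcpt4, 4 of 4 in the table) ranged from 197 to 2581 CPM in EC KO (median 265) and from 1260 to 8849 CPM in Spred1 wt (median 5587). None of the 4 was at 0 in any library. The summed B and plasma cell markers (4 of 4 in the table, none at 0) ranged from 53.6 to 355 CPM in EC KO (median 94.0) and from 170 to 459 CPM in Spred1 wt (median 330.5). The neutrophil markers (4 of 4, with Ly6g at 0 in 5 of all libraries) went the other way, from 35.5 to 282 CPM in EC KO (median 144) and from 13.3 to 323 CPM in Spred1 wt (median 42.2). The groups overlapped for all 3 lists, and the part of the B cell and neutrophil lists in the histone differences was not tested. With the mean of the mast cell markers as a covariate, an alternative chosen after seeing the data, 4 histone genes were called. Hist1h4m was among them (log2 1.96, adjusted p = 0.0260), and Hist1h1d was not (log2 0.69, adjusted p = 0.105). With the Xist level as a covariate, likewise chosen after seeing the data, 9 histone genes were called. The share of all genes called with these covariates is not given here, so a changed count need not be particular to histone genes. In bulk RNA, a change in cell numbers and a change in RNA per cell cannot be told apart.

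In the S phase list, 32 DNA replication genes such as Pcna, 5 rose and 0 fell in EC KO against Spred1 wt, where 3.49% of all genes rose. The median log2 difference of the list was 0.21, against 0.02 over all genes. With the S phase list mean as a covariate 2 histone genes were called, and Hist1h4i fell to a log2 estimate of 0.34 (edgeR adjusted p = 0.186). Hist1h4m stayed at 2.34 (adjusted p = 0.0240). The share of all genes called with this covariate is not given here.

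HSC wt was compared with Spred1 wt, since both have intact Spred1 and HSC wt was given poly(I:C) with Mx1-cre. No histone gene passed in edgeR, where 0.0299% of all genes did, 36 were higher and 14 lower, and the median was 0.24 (-0.01 over all genes). Without HSC wt 3 the median was 0.15, and without Spred1 wt 1 it was 0.33. At an unadjusted p under 0.05 there were 6 histone genes, 4 higher and 2 lower, against 6.35% of all genes. The groups did not overlap for 2 histone genes, against 1.9% of all genes. DESeq2 called 3 and limma voom 0, and the share of all genes they called is not given here. The 3 were those of smallest p in edgeR: Hist1h4m (log2 2.22, SE 0.52, edgeR adjusted p = 0.174), and the linker histone genes Hist1h1e (0.95, SE 0.22, edgeR adjusted p = 0.174) and Hist1h1d (1.02, SE 0.25, edgeR adjusted p = 0.220).

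Hist1h1e had 8.93, 8.75, 11.2, 7.51 and 6.93 CPM in HSC wt and 5.45, 3.37, 3.97, 5.58 and 4.16 CPM in Spred1 wt, and the groups did not overlap. Without Spred1 wt 1 the edgeR fit called 1 histone gene, Hist1h1d (log2 1.33, adjusted p = 0.00897). With the Xist level as a covariate it called Hist1h1e. The genes with a lower estimate and the smallest p were the H4 genes Hist1h4h (-0.74, SE 0.29) and Hist4h4 (-0.80, SE 0.34). The comparisons of global KO, EC KO and HSC wt share the Spred1 wt libraries, so the higher estimates in all 3 are not independent of each other. Their medians were 0.29, 0.55 and 0.24.

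A test of any difference among the 5 groups passed for 3 histone genes, Hist1h4m (edgeR adjusted p = 0.000212), Hist1h1e (adjusted p = 0.0266) and Hist1h1d (adjusted p = 0.0411), where 8.45% of all genes passed. Hist1h1e had means of 4.51 ± 0.968 CPM in Spred1 wt, 5.91 ± 1.67 in global KO, 6.61 ± 1.73 in EC KO, 8.45 ± 1.96 in HSC KO and 8.67 ± 1.66 in HSC wt (SD, n = 5, with 6 in global KO). The 2 groups with Mx1-cre and poly(I:C) had the highest means, and HSC KO and HSC wt differed by less than 1 SD. Poly(I:C) is not known for the other groups, and its part and that of Mx1-cre cannot be told apart. Hist1h1d did not share this order, with means of 5.79 CPM in EC KO, 5.59 in HSC KO and 5.96 in HSC wt.

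Hist1h4m, an H4 gene at chr13:21811746-21812150 (mm10, plus strand), differed between groups in a way that did not follow Spred1. Global KO had 0, 0, 3, 1, 2 and 2 reads, close to Spred1 wt. HSC KO had 16, 6, 20, 13 and 15 reads and HSC wt 7, 7, 15, 15 and 21, close to EC KO. In all, the 11 global KO and Spred1 wt libraries held 19 reads (0 to 0.237 CPM) and the other 15 held 209 (0.331 to 1.13 CPM), with no overlap. This split of the libraries was chosen after the values were seen and has no test of its own. Since the split was drawn from the Hist1h4m values, this gene meets it by construction. No other of the 13379 genes tested had all 11 libraries below all 15 others, and for 0 genes did they lie above.

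For none of the neighbouring histone genes did the libraries split without overlap, although some means were lower in the 11 libraries. Hist1h4n, the next H4 gene on the chromosome, had 4 to 31 reads in the 11 libraries (mean 0.889 CPM) and 5 to 19 in the other 15 (mean 0.611 CPM). Hist1h3i, an H3 gene, had means of 0.533 and 0.484 CPM. Hist1h2ao, whose annotated span covers Hist1h4m on the same strand, had 0.306 and 0.507 CPM. The mean of 0.507 includes 52 reads in EC KO 3, where the other 25 libraries had at most 12. Only 10.2% of the 50-base windows of Hist1h4m occur in no other gene, so its reads may be shared with other H4 copies. The part of shared reads in this split was not tested.

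**Figure D4:**
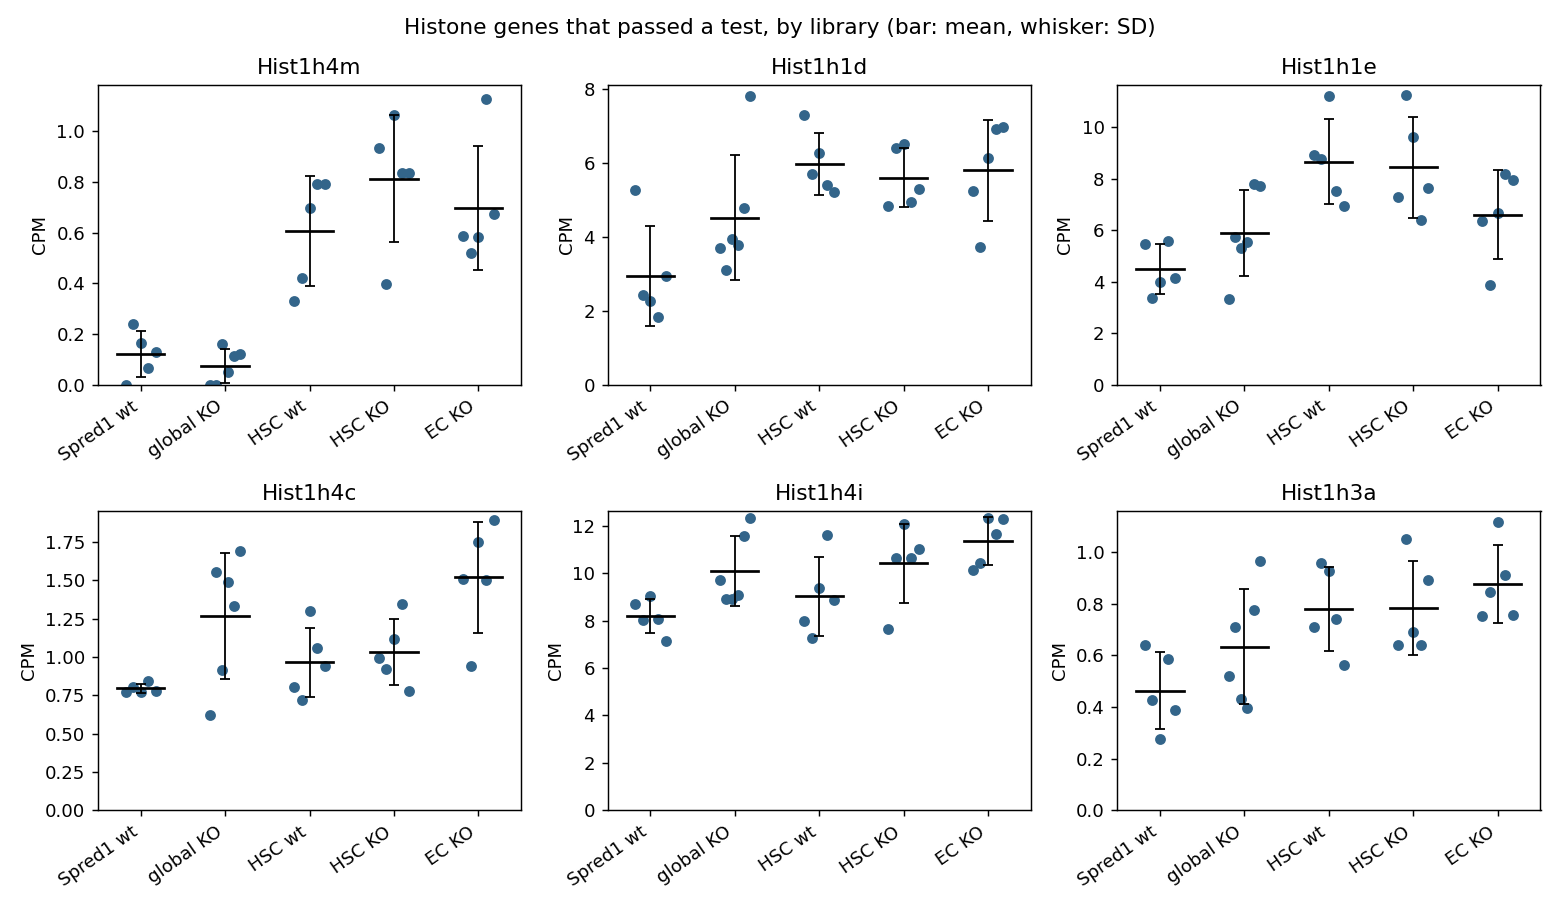
CPM of the 6 histone genes that passed in EC KO against Spred1 wt or in the test of any difference, by library and group, with mean (bar) and SD (whisker). Hist1h4m is near 0 in Spred1 wt and global KO and above 0.33 CPM in all other libraries.

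Histone genes varied among replicates about as much as other rare transcripts. Their median biological coefficient of variation, the spread beyond counting error, was 0.293, against 0.342 for 1067 other genes of similar counts and 0.108 for the S phase list. It was smallest for Hist1h4i (0.146), Hist1h3a (0.194) and Hist1h2be (0.198). The largest values were those of Hist2h3c1 (0.790), Hist1h2ao (0.572) and Hist1h2al (0.468), the last an annotated processed pseudogene. Hist2h3c1 had 0 reads in 3 libraries and 27 in global KO 4, and its annotated span overlaps that of Hist2h2aa2 on the other strand.

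Within groups the histone genes tended to move together. Over the 26 libraries, after the group means were removed, the median correlation between 2 histone genes in log2 CPM was 0.34 for 1225 pairs, and it was 0.66 among the 5 H1 genes and 0.27 among the 12 H4 genes. These correlations share libraries and depth and are given as a description. The genes most in step with the other members were Hist1h2ac (mean correlation 0.50), Hist1h2bb (0.48) and Hist1h2bg (0.47), and the least were Hist1h2ao (-0.01) and Hist1h4k (0.00).

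Few histone genes had slopes on the S phase genes that passed. The mean log2 CPM of the 32 S phase genes was used as a measure of replication activity in a library, and each gene was tested for a slope on it within groups. Of the 50 histone genes 1 had a positive slope that passed (Hist1h2ao, adjusted p = 0.0407) and 1 a negative one (Hist2h2aa2, adjusted p = 0.0161). Both have few reads. Hist1h2ao had a median of 6.5 reads but 52 in EC KO 3, where the S phase mean was high (7.01 log2 CPM). Hist2h2aa2 had a median of 6 reads, and all its 50-base windows occur in other genes. Over all genes 18.3% had positive and 14% negative slopes that passed. The median slope of the histone genes was -0.26 (log2 change per log2 unit), and 31 of 50 were negative. The SE of these slopes ran from 0.39 (Hist1h4i) to 2.56 (Hist2h3c1), so a slope near 0.55 could be missed for histone genes. Without EC KO 5 the count was 0. It was 1 without EC KO 2, where Hist2h2aa2 did not pass, and 1 without EC KO 1, EC KO 4, global KO 6, Spred1 wt 3 or HSC wt 4, where Hist1h2ao did not. It was also 1 without EC KO 3, global KO 1, 4 or 5 or HSC KO 3, where Hist1h2ao missed the count filter and was not tested. Without global KO 2 it was 3.

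Slopes were also fitted for the genes that process and carry histones, which have higher counts. Of the 24 genes on the histone mRNA and chaperone list 12 had a positive slope that passed and 0 a negative one, with a median slope of 0.55. Among these were the chaperone gene Nasp (1.45, SE 0.19, adjusted p = 1.98e-05), the histone acetyltransferase gene Hat1 (1.55, SE 0.20, adjusted p = 2.25e-05) and Slbp (0.57, SE 0.16, adjusted p = 0.0109). The histone gene coactivator Npat had 0.18 (SE 0.22, adjusted p = 0.559) and Casp8ap2, a component of the same nuclear bodies, 0.54 (SE 0.27, adjusted p = 0.133). Of the G2 and M phase list 18 of 24 passed upward. Of the 11 variant genes 2 passed upward, among them H2afz (1.17, SE 0.20, adjusted p = 0.000173), while H3f3a had -0.05 and H3f3b -0.29.

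**Figure D5:**
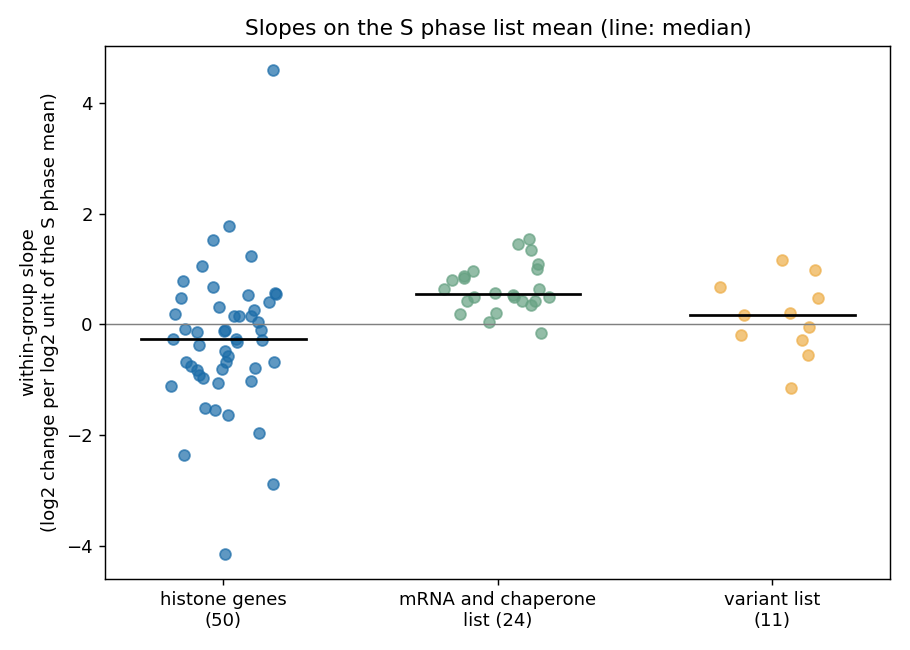
Within-group slope of each gene on the S phase list mean, in log2 change per log2 unit, for the 50 histone genes, the 24 histone mRNA and chaperone genes and the 11 variant genes, with medians (lines). Histone genes scatter around 0 with a median of -0.26, and the mRNA and chaperone genes lie mostly above 0 with a median of 0.55. The SE of the histone slopes, which is not drawn, ran from 0.39 to 2.56.

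The slope on the mean of the 24 G2 and M phase genes gave a like count. No histone gene had a positive slope that passed and 1 had a negative one (Hist2h2aa2, -3.55, SE 1.18, adjusted p = 0.0309), where 15.4% and 10% of all genes passed. At an unadjusted p under 0.05 there were 6, against 37.9% of all genes. It was 0 without global KO 6, HSC wt 2 or EC KO 2, 3 or 5, 2 without Spred1 wt 2 or HSC wt 3, and 3 without EC KO 4. The next in order of p were the H2A row Hist1h2al (-3.02, adjusted p = 0.0704) and the linker gene Hist1h1c (-1.73, adjusted p = 0.102).

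In the comparison of EC KO with Spred1 wt, 4 of the 24 histone mRNA and chaperone genes rose and 0 fell, where 3.49% of all genes rose and 4.47% fell. They were Slbp (131.7 ± 12.9 CPM against 107.6 ± 4.39, log2 0.29, SE 0.07, edgeR adjusted p = 0.00690), Hat1 (log2 0.47), the chaperone gene Asf1a (0.32) and Rbbp7 (0.23), whose product binds histones. Of the 11 variants, H2afz (log2 0.43, SE 0.10, adjusted p = 0.00792) and H3f3a (0.26, SE 0.06, adjusted p = 0.0126) rose and 0 fell. Npat (-0.09), Casp8ap2 (0.03), H2afx (0.04) and H3f3b (0.13) did not pass, with adjusted p from 0.469 to 0.855. In the comparisons of global KO with Spred1 wt, HSC KO with HSC wt and HSC wt with Spred1 wt, 0 genes of either list passed, with smallest adjusted p of 0.639, 0.999 and 0.807.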

How the data were processed

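RNA-seq of sorted LSK cells gave 26 libraries in 5 groups. Per the labels, total RNA was extracted with the miRNeasy micro Kit. The authors deposited raw read counts per gene, whole numbers without normalization, with gene lengths in kilobases. The submitters' processing notes name build mm10 and the tools STAR 2.6.0, HTSeq 0.6.0, edgeR 3.28.1 and bcl2fastq 2.18.0.12. The annotation, strand setting, read length and RNA selection are not given in the sources used here. Each count column matched 1 sample, and no 2 columns held the same values.

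CPM were computed with library sizes scaled by TMM, and log2 CPM with a prior count of 2. Low counts were removed with filterByExpr (minimum count 10). Then 1 fit of all 26 libraries (edgeR 4.0.16 quasi-likelihood, robust, 21 residual degrees of freedom) gave each comparison as a contrast, with Benjamini-Hochberg adjustment over 13379 genes and a threshold of 0.05. All tests are two-sided. Slopes came from the same model with a list mean as a covariate. Alternatives used DESeq2 1.42.0, limma 3.58.1 (voom with sample quality weights), other normalizations, filters, covariates and controls, and each library left out. The software ran in R 4.3.3 and Python 3.11.15 with matplotlib 3.10.9. The fits were tested on simulated data. The upper limit behind a count of 0 was set at 3 counts, for counting error alone.

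Transcripts were read from GENCODE M21 and promoters from RefSeq, with 50 and 43 of the 50 genes matched. Replicates were numbered in accession order. The genes and lists were chosen with earlier results of these data known. Named genes were the 2 highest per class, those that passed a test, the 3 of smallest p per direction and comparison and per slope, the 3 largest and 3 smallest coefficients of variation, and set members of the 2 related lists. Some were left out of the text. Hist1h4n, Hist1h3i, Hist1h2an, Hist1h2bp, Hist1h2br and the genes named for correlation lie outside this rule. They and the immediate early list were picked with their values in view.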

Additional observations from a re-analysis of the deposited data

Results flagged for a closer look

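Within groups of 5 or 6 libraries, 180 group values of the class sums and named genes were examined for a library far from the others by Dixon's ratio. Of these 10 stood apart (5.56%), and chance alone marks about 1 in 20. Of the 10, 5 belonged to HSC KO 3, which had the highest histone sum of its group. There the class H2B sum was 54.4 CPM, against 37.0 to 40.6 CPM in the other 4 libraries. Hist1h2ac was at 7.40 CPM (others 2.95 to 4.07), Hist1h2bg at 10.0147 CPM (others 7.02 to 7.87), Hist1h2al at 2.13 CPM (others 0.557 to 0.856) and Hist3h2ba at 1.33 CPM (others 0.592 to 0.770). Without HSC KO 3 the median histone difference of HSC KO against HSC wt went from 0.14 to -0.04.

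The class H3 sum was 5.66 CPM in HSC wt 3, against 4.63 to 4.86 CPM in the other HSC wt libraries. Hist1h1d was at 7.79 CPM in global KO 6 (others 3.10 to 4.78), and Hist1h4m at 1.13 CPM in EC KO 4 (others 0.518 to 0.672). Hist1h3c, an H3 gene, was low in HSC KO 1, at 0.408 CPM (others 1.11 to 1.25). Hist1h2ao stood out most, at 2.53 CPM in EC KO 3 against 0.214 to 0.471 CPM in the other EC KO libraries.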

How the results depend on the processing

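Counts and medians held in 264 of 302 alternatives, judged by size alone. A count held if it was equal or of like size. A median held if it moved by less than 0.28 log2, the within-group SD of the mean histone level, whatever its sign. The HSC KO median of -0.04 without HSC KO 3 is thus among those that held. Single genes held in direction and side of the threshold in 845 of 918 alternatives. Of the rest, 53 lost a call, 13 gained one and 7 changed sign. The number of histone genes called in EC KO against Spred1 wt was 5. It was 3 with a filter of at least 1 CPM in 5 libraries (31 histone genes tested), 0 in a fit of the compared groups only (40 tested), 2 with the S phase mean as a covariate, 9 with the Xist level as a covariate and 1 with HSC wt as the control. It ran from 1 (without Spred1 wt 2) to 9 (without Spred1 wt 1). The median difference moved from 0.55 to 0.86 with the immediate early list as a covariate. In HSC wt against Spred1 wt the count moved from 0 to 3 with DESeq2, to 1 with the immediate early covariate and to 1 with the Xist covariate, and from 0 to 1 over libraries left out. Positive and negative slopes on the S phase mean were 2 in all, 1 with no filter, 1 with DESeq2 and 0 to 3 over libraries left out. Slopes on the G2 and M phase mean were 1, 3 with limma voom and 0 to 3 over libraries left out. With HSC wt as the control for EC KO, Hist1h1d turned to -0.042, Hist2h2be to 0.00536 and Hist4h4 to 0.68. Hist4h4 also turned to 0.27 when Spred1 wt and HSC wt were averaged as the control, to 0.0145 with the immediate early covariate, and ranged from -0.31 to 0.15 over libraries left out. The causes were not tested, beyond the fewer genes tested by the 2 filters above. The share of all genes called in these alternatives is not set beside the counts. Their changes need not be particular to histone genes. The immediate early, mast cell and Xist covariates were chosen after seeing the data, so counts and medians with them are descriptions. No paired analysis was possible because the labels give no replicate numbers that the groups share.

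Depth limits these genes. The median SE of a log2 difference in EC KO against Spred1 wt was 0.33 for the 50 histone genes and 0.12 for all genes tested, and 28 histone genes had mean counts under 20. Near-identical copies, a stand-in control for EC KO, and poly(I:C) given to HSC wt but not known for Spred1 wt limit the single-gene values further. Whether the libraries were selected for poly(A) is not known, which limits the levels, the comparison with variants and the S phase slopes.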

Other observations

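The summed histone level was set beside the immediate early genes, a set that cells switch on rapidly after a stimulus, and in some groups, not all, the libraries had a like order. The list of 20 genes (Fos, Jun, Egr1, Ier2 and others) was drawn up after this pattern had been seen, so it carries no test. All figures here are descriptions. In global KO the library with the highest histone sum (global KO 6, 186 CPM) also had the highest mean of the list (7.58 log2 CPM), with Ier2 at 410 CPM. The library second lowest in histone sum (global KO 1, 83.9 CPM) had the lowest mean of the list (5.51 log2 CPM), with Ier2 at 135 CPM. In EC KO the highest histone sum again went with the highest list mean (EC KO 5, 159 CPM and 6.65 log2 CPM). In Spred1 wt the order differed: Spred1 wt 1 had the highest histone sum (137 CPM) and only the third highest list mean (6.97 log2 CPM). In HSC KO the highest histone sum (HSC KO 3, 162 CPM) went with the second highest list mean (6.87 log2 CPM), and the lowest of both fell in HSC KO 1 (106 CPM and 5.98 log2 CPM). In HSC wt the order differed again. HSC wt 2 had the highest list mean (7.32 log2 CPM) but a histone sum of 108 CPM, below 3 of the other libraries of its group, and HSC wt 3, highest in histone sum (134 CPM), had the third highest list mean (6.90 log2 CPM).

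The fitted within-group slope on the list mean was positive for 40 of the 50 histone genes, with a median of 0.25 (log2 change per log2 unit). It was positive for 12 of 13 H2B, 10 of 12 H2A, 4 of 5 H1, 6 of 8 H3 and 8 of 12 H4 genes. Over all other genes tested 49.5% had a positive slope, with a median of 0.00. For the S phase list 2 of 32 slopes were positive (median -0.11). The list mean was lower in EC KO (5.23 to 6.65, median 5.86) than in Spred1 wt (6.01 to 7.51, median 6.97), with some overlap. With it as a covariate the median histone difference of EC KO against Spred1 wt was 0.86, against 0.55 without it. The list was chosen from these same values, so this change is a description only.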
